A study of Homo sapiens with 4 samples.

Results

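The genes described here are 10 genes of the negative feedback on mitogen-activated protein kinase (MAPK) signalling in A375 cells, a human melanoma line in long use that carries an activating BRAF mutation. They are the dual-specificity phosphatase genes DUSP4, DUSP5 and DUSP6, the Sprouty genes SPRY1, SPRY2 and SPRY4, the Sprouty-related genes SPRED1 and SPRED2, and the ETS factor genes ETV4 and ETV5. They were named by symbol, with earlier results of these data known, and all 10 were found among the 56832 genes of the deposited table. RNA was sequenced from cells kept for 48 h with 1 mM octanoate, a saturated medium-chain fatty acid, or with its solvent isopropanol as vehicle, with 2 libraries per group. The genotype is given as WT for every library, and no label tells whether libraries of a group came from separate cultures, so that p-values measure only the spread between these libraries, which may be technical. The comparison asks which feedback genes rise and which fall under octanoate in this BRAF-mutant line.

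In the MAPK cascade, receptors activate RAS, RAS activates RAF kinases, RAF activates MEK, and MEK activates ERK. Active ERK raises the transcription of genes whose products act against the cascade at several levels. DUSP4 and DUSP5 are nuclear phosphatases that remove the activating phosphates from MAP kinases, and DUSP6 does this to ERK in the cytoplasm. Sprouty proteins act between receptors and RAF, and SPRED proteins bring the RAS inactivator neurofibromin to the membrane. ETV4 and ETV5 encode ETS transcription factors of the PEA3 group, which are themselves transcribed when ERK is active. In melanoma cells with mutant BRAF, ERK output of this kind is known to be high.

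Recovered read totals per library were from 67785956 to 78005035. The 10 genes together held 113876 and 108590 of these reads under vehicle and 123516 and 108371 under octanoate. As reads scaled to the library total (RPM) this was 1480 and 1455 against 1583 and 1599. The cell identity was checked on markers. The neural crest and melanoma gene SOX10 had normalised counts from 34072 to 41363, and those of AXL, known from less differentiated melanoma cells, were higher under octanoate (23437 and 22061 against 30450 and 30298). NGFR was lower under octanoate (11444 and 10653 against 7401 and 6899), as were S100B (4234 and 3741 against 1917 and 1746) and MITF (3533 and 3330 against 2414 and 2511). The 9 melanoma markers summed to 84155 and 77710 in vehicle and to 81445 and 75696 in octanoate. The pigment genes were low and did not move together. MLANA was at most 52.02 and overlapped between the groups. PMEL was called higher, at 65.8 and 65.9 in vehicle and 98.2 and 95.4 in octanoate. DCT lay lower under octanoate but was not called (24.5 and 30.0 against 10.6 and 20.6). TYR lay lower too and was not tested (3.93 and 3.88 against 1.93 and 2.17). Of the 3 epithelial markers, which summed to between 3201 and 3903, EPCAM and CDH1 were at most 31.8 and 15.2. Nearly all of the sum was KRT8, at 3859 and 3569 in vehicle and 3449 and 3157 in octanoate, which was not called. The 3 leukocyte markers summed to between 22.1 and 30.4 in every library. The 3 endothelial markers summed to 201 and 207 in vehicle and to 338 and 347 in octanoate, mostly through PECAM1 (120.7 and 122.1 against 249.3 and 221.1). VWF was called higher too (65.8 and 63.9 against 89.5 and 95.4), and CDH5, which defines endothelium, was not called and lay between 8.66 and 21.7. The part of these shifts in the results was not tested.

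Under octanoate, feedback genes were called in both directions. Of the 10 genes, 5 rose (DUSP4, DUSP5, DUSP6, SPRY2 and ETV4), 2 fell (SPRY4 and ETV5), and 3 did not pass the test (SPRY1, SPRED1 and SPRED2). The test was limma on log2(normalised count + 1) over the 20250 genes whose normalised counts averaged at least 10. It used Benjamini-Hochberg adjustment and a call at an adjusted p under 0.05. Its variance for a gene was drawn in part from other genes of like count, not from the spread of that gene alone. That fit called 29.9% of all genes tested, 16.2% higher and 13.7% lower, and 38.1% of those averaging at least 1000 (18.1% higher and 20.0% lower), a range that holds each of the 10 genes but SPRY1. The count of 2 that fell is near the share called lower in that range, so that it is no result about the genes as a set. The libraries of the groups did not overlap for 9 of the 10 genes, 5 above and 4 below vehicle, where 63.1% of all genes tested showed no overlap (32.6% above and 30.5% below) and 69.4% of those averaging at least 1000. The median log2 difference of the 10 genes was 0.09, against 0.01 for all genes tested. Apart from DUSP5 the called changes were small: the mean normalised count of SPRY4 fell by 21.4%, that of ETV4 rose by 25.3%, and the others lay between. The counts depended on the fit and on single libraries: without the intensity trend in limma's variance prior 1 gene rose (DUSP5) and 0 fell, and with no filter on low counts 3 rose and 1 fell. Without vehicle 2, 3 rose, and without vehicle 1, 1 fell. Because RNA was taken from whole cultures, fewer cells expressing a gene and less RNA per cell cannot be told apart.

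**Figure D1:**
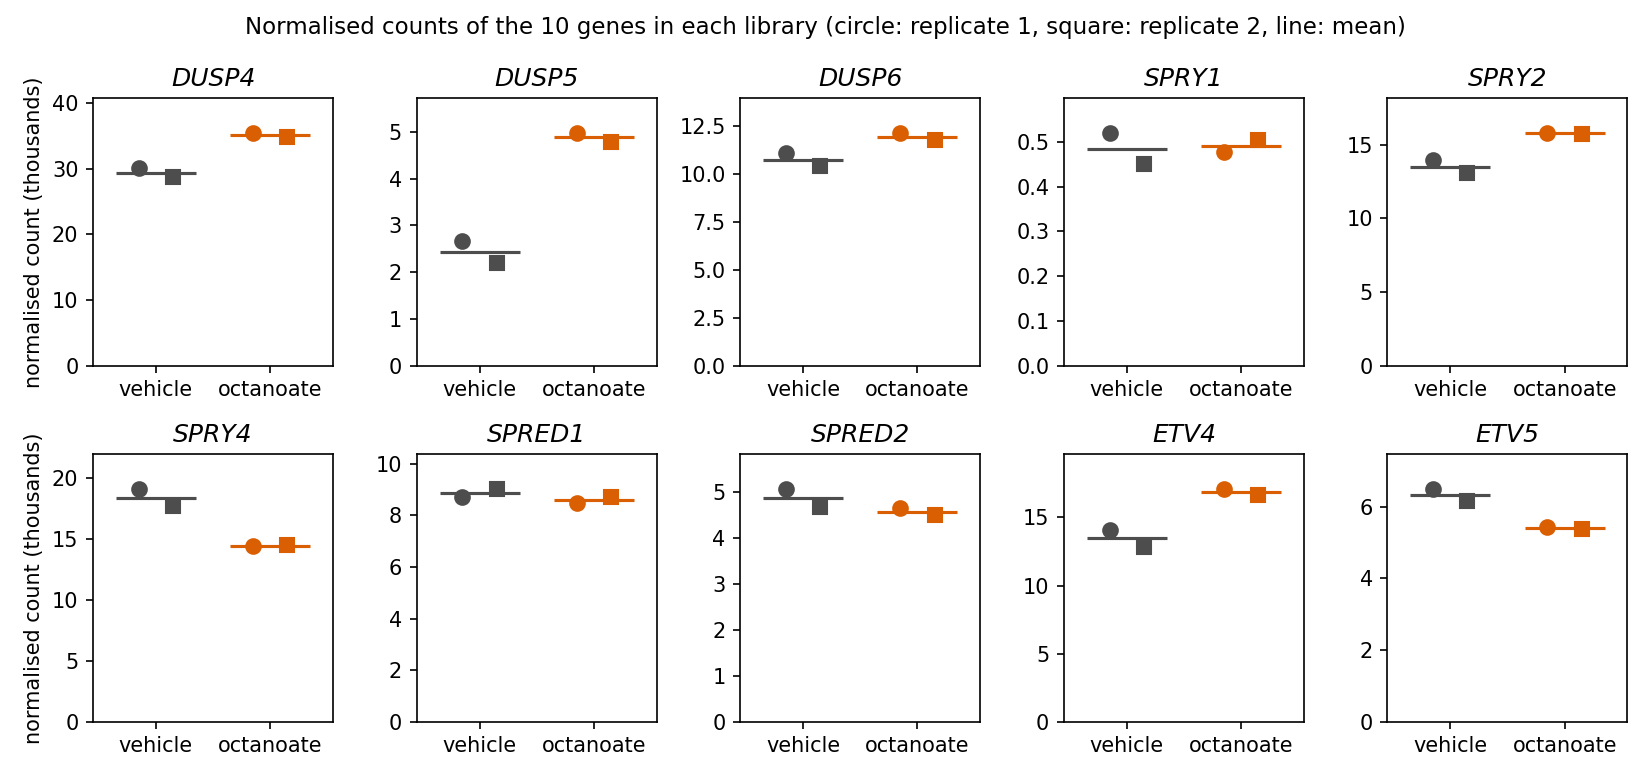
Normalised read count divided by 1000 (vertical axes, each from 0) of the 10 genes in the 2 vehicle and 2 octanoate libraries; points are libraries and lines are group means. DUSP5 stands at 2666 and 2206 in vehicle and at 4980 and 4793 in octanoate, while SPRY4 and ETV5 lie lower under octanoate and SPRY1 overlaps.

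All 3 phosphatase genes rose. DUSP5, which encodes a nuclear phosphatase specific for ERK, lies on chromosome 10 from 110497838 to 110511544 on the plus strand (hg38, GENCODE 29). Its normalised count was 2666 and 2206 under vehicle, and 4980 and 4793 under octanoate. Both octanoate libraries were thus far above both vehicle libraries, and the vehicle libraries differed more from each other than the octanoate libraries did. The mean rose from 2436 ± 325 to 4887 ± 132 (SD, n = 2 each), a 2.01-fold change (adjusted p = 1.1e-10 by limma). Of the 9003 genes averaging at least 1000, 98.9% had a smaller absolute log2 difference than DUSP5.

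DUSP4, whose product dephosphorylates ERK and other MAP kinases in the nucleus, is encoded on chromosome 8 on the minus strand. Its normalised count was 30084 and 28661 in vehicle and 35417 and 34868 in octanoate. The groups did not overlap, and the gap between them was larger than the spread within either. The log2 difference was 0.26 (SE 0.06, adjusted p = 0.00126 by limma), a rise of 19.6% in the mean. DUSP4 was no longer called without the intensity trend (adjusted p = 0.101).

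DUSP6, the cytoplasmic phosphatase of ERK, lies on chromosome 12 from 89347232 to 89353271 on the minus strand. Its normalised count was 11081 and 10400 in vehicle and 12137 and 11754 in octanoate. The libraries did not overlap, yet the gap between the nearest libraries of the groups was about as wide as the gap between the vehicle libraries. Its log2 difference of 0.15 (SE 0.06, adjusted p = 0.0446 by limma) was the smallest of the called changes among the 10 genes, with the highest adjusted p. The adjusted p was 0.273 without vehicle 2, 0.246 without octanoate 1, 0.0998 without octanoate 2, 0.174 with no filter on low counts and 0.24 without the intensity trend. In GENCODE 29, exons of DUSP6 share 1875 of 4632 bases with AC024909.2, an antisense gene on the opposite strand, and the strand setting of the counting is not given in the sources used here. AC024909.2 has no entry under this symbol among the deposited genes, so that its level is not known here. Without strand, reads of the pair cannot be told apart.

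The Sprouty genes split. SPRY2, on chromosome 13 from 80335976 to 80340951 on the minus strand, rose. SPRY4, on chromosome 5 from 142310427 to 142326455 on the minus strand, fell. SPRY1, on chromosome 4 from 123396795 to 123403760 on the plus strand, did not pass the test. Because SPRY2 and SPRY4 moved in opposite directions, the 250 bases before a start of each gene are shown, from RefSeq on GRCh38.p14. Neither of these starts is the edge of the GENCODE 29 span given above. For SPRY2, which has 3 starts in that table, the stretch before the start farthest upstream is chr13:80341127-80341376 on the minus strand. For SPRY4 the stretch is chr5:142324248-142324497 on the minus strand, part of which is an exon of a non-coding SPRY4 transcript in GENCODE 29. Capitals mark the ETS core CCGGAA.
SPRY2: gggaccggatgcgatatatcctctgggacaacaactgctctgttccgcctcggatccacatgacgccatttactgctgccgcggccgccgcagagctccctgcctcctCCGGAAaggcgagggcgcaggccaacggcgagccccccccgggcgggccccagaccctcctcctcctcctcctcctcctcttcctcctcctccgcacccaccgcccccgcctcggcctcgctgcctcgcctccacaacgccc
SPRY4: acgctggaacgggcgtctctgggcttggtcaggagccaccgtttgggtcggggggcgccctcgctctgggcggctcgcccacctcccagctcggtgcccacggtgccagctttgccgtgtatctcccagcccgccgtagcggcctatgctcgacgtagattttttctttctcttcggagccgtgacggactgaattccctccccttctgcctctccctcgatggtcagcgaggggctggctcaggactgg

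The ETS core, the motif bound by factors of the family that includes ETV4 and ETV5, was searched on both strands. SPRY2 holds it once in this window, from 142 to 137 bases before the start, and not in the windows before its other starts. SPRY4 does not hold these letters in its window. Over all 35116 start sites of the table, 14.5% of the windows of the same length hold a match, so that a match is a description of the letters and no evidence of binding. The same windows were searched for 4 other motifs: the AP-1 motif TGANTCA, the cyclic AMP response element TGACGTCA, the ATF4 composite element TGATGNAA and the CArG box of serum response factor. Of all windows, 6.57%, 1.65%, 3.14% and 1.16% hold these, in the same order. Neither of the 2 printed windows held any of the 4. Across the 10 starts that the table gives for DUSP6, SPRY1, SPRY2, SPRY4, SPRED1 and SPRED2, the other matches were an ETS core before the second start of SPRY1 and an ATF4 composite element before the second start of SPRED2. DUSP5, ETV4 and ETV5 are without an entry. For the 10 genes, starts on chromosome 8, where DUSP4 lies, were left out, so that DUSP4 was not searched.

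The normalised count of SPRY2 was 13950 and 13049 in vehicle and 15802 and 15747 in octanoate. The octanoate libraries were nearly equal and both lay above vehicle. The log2 difference was 0.23 (SE 0.06, adjusted p = 0.00385 by limma), a rise of 16.9%. Without vehicle 2 the adjusted p was 0.0514, with no filter it was 0.0688, and without the intensity trend it was 0.136.

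SPRY4 had 19109 and 17720 normalised counts in vehicle and 14447 and 14516 in octanoate. This was the clearest fall among the 10 genes, with no overlap and a gap of more than the spread within either group. The log2 difference was -0.35 (SE 0.06, adjusted p = 5.39e-05 by limma). It was not called without the intensity trend, where the adjusted p was 0.0764.

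SPRY1 was measured with the fewest reads of the 10 genes, at 520.2 and 450.5 normalised counts in vehicle and 478.4 and 505.02 in octanoate. The groups overlapped, and both octanoate values lay between the vehicle values. The log2 difference was 0.02, with a 95% confidence interval from -0.18 to 0.22 (adjusted p = 0.897 by limma). A change of the size seen in SPRY4 was outside this interval, whereas a change of the size seen in DUSP6 was not.

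The ratio of SPRY2 to SPRY4 reads within a library is free of any scaling between libraries. It was 0.730 and 0.736 under vehicle, and 1.09 and 1.08 under octanoate. SPRY4 thus had more reads than SPRY2 in both vehicle libraries and fewer in both octanoate libraries, a comparison of reads and not of levels per length. The mean ratio went from 0.733 ± 0.00452 to 1.09 ± 0.00636 (SD, n = 2 each), so the shift was many times the spread between replicates. With 2 libraries against 2, an exact two-sided permutation test cannot give a p below 0.333, and it gave 0.333 here (0.389 after Benjamini-Hochberg adjustment over the 7 ratios computed).

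The SPRED genes did not pass the test. SPRED1, whose product binds neurofibromin, lies on chromosome 15 from 38252326 to 38357249 on the plus strand and had 8724 and 9017 normalised counts in vehicle and 8486 and 8705 in octanoate. Both octanoate values were below both vehicle values, but the gap was smaller than the spread within either group. Its log2 difference had a 95% confidence interval from -0.16 to 0.07 (adjusted p = 0.595 by limma). SPRED2, a paralogue on chromosome 2 from 65310851 to 65432637 on the minus strand, had 5070 and 4686 in vehicle and 4654 and 4506 in octanoate. Here too octanoate was lower without overlap, and the gap was again smaller than the spread within either group. The interval of its log2 difference was from -0.21 to 0.03 (adjusted p = 0.285 by limma). The ratio of SPRED1 to SPRED2 reads was 1.72 and 1.92 in vehicle and 1.82 and 1.93 in octanoate, so that the groups overlapped (exact permutation p 0.667).

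The ETS factor genes moved apart as well. ETV4, on chromosome 17 from 43527844 to 43579620 on the minus strand, had 14082 and 12853 normalised counts in vehicle and 17066 and 16672 in octanoate. Both octanoate libraries lay above vehicle. The log2 difference was 0.33 (SE 0.06, adjusted p = 0.000138 by limma), and the adjusted p was 0.0945 without the intensity trend. Its exons share 68 bases with DHX8 on the opposite strand, a gene with between 11393 and 12857 normalised counts.

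ETV5, on chromosome 3 from 186046308 to 186110318 on the minus strand, had 6489 and 6163 normalised counts in vehicle and 5423 and 5380 in octanoate. The octanoate libraries were close together and below both vehicle libraries. The log2 difference was -0.23 (SE 0.06, adjusted p = 0.00409 by limma). The call was lost without vehicle 1 (adjusted p = 0.0581), with no filter (0.0598) and without the intensity trend (0.124). ETV5 shares 164 exon bases with DGKG on the same strand, a gene with between 854.9 and 969.9 normalised counts.

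Within a library, ETV4 had 2.17 and 2.09 times the reads of ETV5 in vehicle and 3.15 and 3.10 times in octanoate. The mean ratio went from 2.13 ± 0.0599 to 3.12 ± 0.0338 (SD, n = 2 each). The shift exceeded the spread between replicates, with the exact permutation p again at its lowest possible value of 0.333. Among the phosphatases, DUSP5 reads were 0.241 and 0.212 of the DUSP6 reads in vehicle and 0.410 and 0.408 in octanoate. DUSP4 and DUSP6 moved more nearly together, with 2.72 and 2.76 DUSP4 reads per DUSP6 read in vehicle and 2.92 and 2.97 in octanoate.

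**Figure D2:**
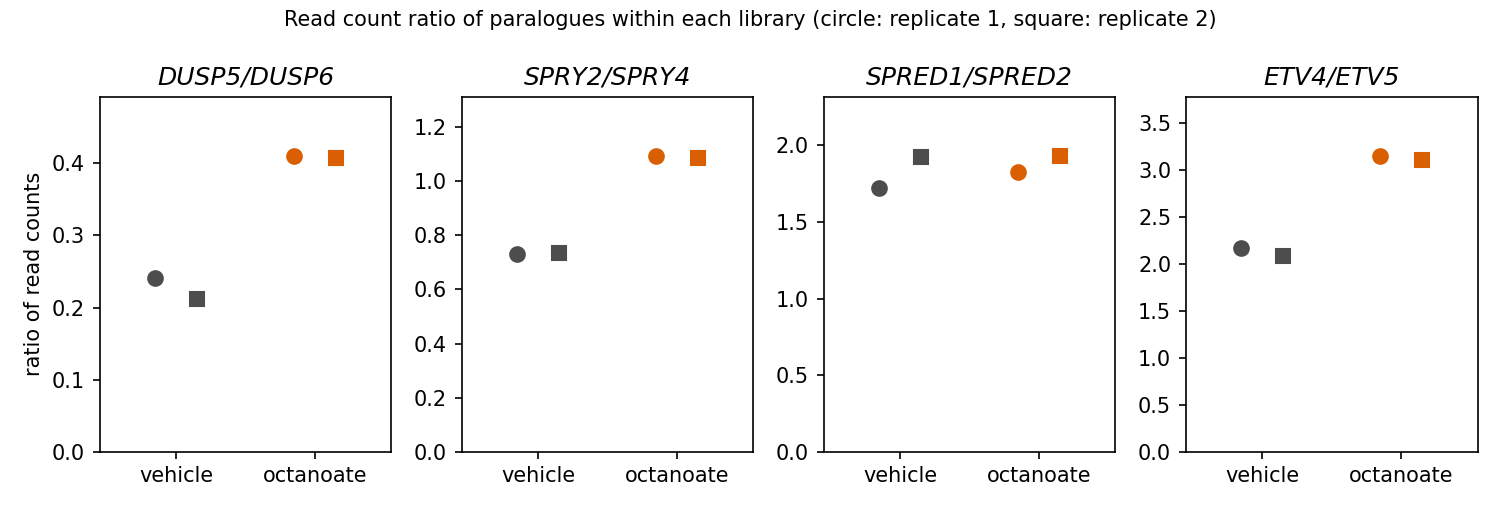
Ratio of the read counts of paralogues within a library (vertical axes, no unit, each from 0) in the 2 vehicle and 2 octanoate libraries; points are libraries. DUSP5/DUSP6, SPRY2/SPRY4 and ETV4/ETV5 lie higher in both octanoate libraries, and SPRED1/SPRED2 overlaps between 1.72 and 1.93.

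In the authors' deposited table, a DESeq2 comparison, the same direction counts were listed, with 5 of the 10 genes higher and 2 lower at an adjusted p under 0.05. That table calls 12.9% of its 33533 genes, and 33.8% of those averaging at least 1000. The authors' deposited table gives DUSP5 a log2 fold change of 1.00 (adjusted p = 6.85e-29), SPRY4 one of -0.35 (5.31e-08) and DUSP6 one of 0.15 (0.0412).

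To compare levels between genes, recovered reads were divided by the exon length of the gene in GENCODE 29 and by the library total, which gives RPKM. On this scale ETV4 had the highest level in vehicle (66.5 and 63.4), followed by SPRY2 (60.8 and 59.4), DUSP4 (54.9 and 54.6) and SPRY4 (50.9 and 49.2). DUSP6 (32.3 and 31.6) and ETV5 (19.8 and 19.7) came next. SPRED2 (16.1 and 15.6) and SPRED1 (14.9 and 16.03) overlapped in vehicle and cannot be ordered. DUSP5 (13.8 and 11.9) followed, and SPRY1 was far below at 2.28 and 2.06. Under octanoate the level of DUSP5 was 25.9 and 25.5, so that it passed both SPRED genes and ETV5 (16.7 and 16.9), while SPRY4 at 38.7 and 39.7 came closer to DUSP6 at 35.6 and 35.2. The order of DUSP4 and SPRY2 depends on the length used: over the longest transcript in place of all exons, the vehicle means were 71.8 for DUSP4 and 67.4 for SPRY2. The same holds for DUSP5 and ETV1, with 12.9 and 11.9 over all exons and 12.9 and 13.6 over the longest transcript. DUSP7 (12.1 and 12.7) overlapped DUSP5 in vehicle, so that this pair cannot be ordered.

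**Figure D3:**
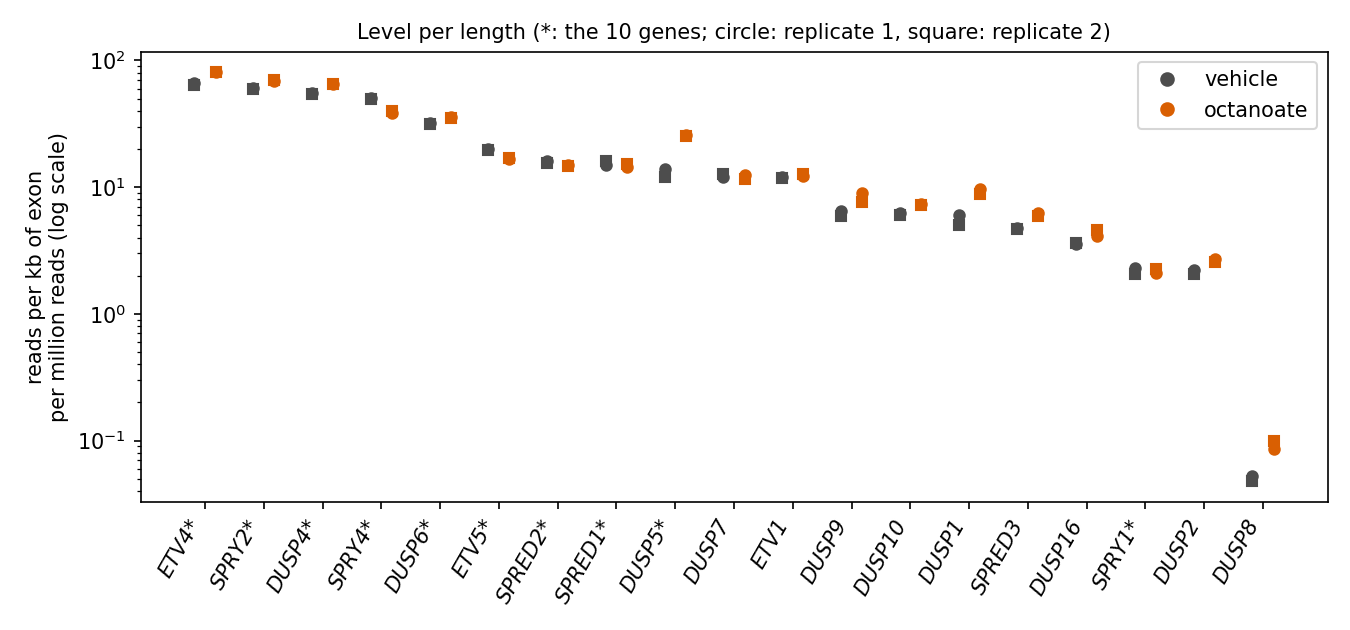
RPKM, recovered reads per kb of exon scaled to the library total (vertical axis, log scale), of the 10 genes, marked by an asterisk, and of 9 relatives in the 4 libraries; genes are ordered by their vehicle mean. DUSP5 shifts from 13.8 and 11.9 in vehicle to 25.9 and 25.5 in octanoate, and by vehicle mean over all exons the relatives lie below all of the 10 genes but SPRY1.

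The other members of these families were examined as a fixed list. Of the other 7 MAP kinase phosphatases, 5 rose and none fell by limma, which called 16.2% of all genes tested higher and 13.7% lower. The median log2 difference was 0.33, against 0.01 for all genes tested. DUSP1, an inducible nuclear phosphatase, had 918.7 and 738.3 normalised counts in vehicle and 1454 and 1304 in octanoate, which gave a log2 difference of 0.74 (SE 0.09, adjusted p = 7.78e-07 by limma). DUSP9, a cytoplasmic relative of DUSP6, rose by 0.42 (adjusted p = 0.000433 by limma). DUSP10 (0.26) and DUSP16 (0.28), which act mainly on JNK and p38, and DUSP2 (0.33), another nuclear phosphatase, were also called higher. These 3 calls depended on single libraries: without vehicle 2 the limma adjusted p was 0.217 for DUSP2 and 0.103 for DUSP10, without octanoate 1 it was 0.175 for DUSP2, and without octanoate 2 it was 0.103 for DUSP16. DUSP2 was not called by DESeq2 on recovered reads either (adjusted p = 0.141), nor in the authors' deposited table (0.182). Without vehicle 2 the list held 3 calls, with no filter it held 1 (DUSP1, adjusted p = 0.0283 by limma), and without the intensity trend it held 1, which was DUSP8 (0.0398) and not DUSP1 (0.0704). DUSP7, the other cytoplasmic relative, had a log2 difference of -0.05 (adjusted p = 0.634 by limma), and DUSP8 one of 0.85 at 15.5 to 32.5 normalised counts (adjusted p = 0.0614 by limma, and 0.0387 with the replicate number as a block).

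Of the remaining relatives, SPRED3 rose and ETV1 did not pass the test. SPRED3 had 1905 and 1801 normalised counts in vehicle and 2460 and 2281 in octanoate, which gave a log2 difference of 0.35 (SE 0.07, adjusted p = 0.000261 by limma), while those of SPRED1 and SPRED2 were -0.05 and -0.09. The difference between these genes was not tested. SPRED3 was not called without the intensity trend (adjusted p = 0.0831). ETV1, the third gene of the PEA3 group, had a log2 difference of 0.08 (adjusted p = 0.34 by limma). SPRY3 did not reach a mean of 10 and was not tested.

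Genes outside these families that are known as ERK output were mostly higher. Of 8 such genes, 7 rose and 1 fell, with a median log2 difference of 0.69. Of all genes tested 29.9% were called (16.2% higher), and 38.1% of those averaging at least 1000 (18.1% higher). The list was written with earlier results of these data known, so that its count and median are only a description. EGR1, an early response transcription factor, rose from 1301 and 1026 normalised counts to 2581 and 2296, a log2 difference of 1.07 (SE 0.09, adjusted p = 9.9e-10 by limma). FOSL1, an AP-1 subunit, had a log2 difference of 1.03, EPHA4, an ephrin receptor, one of 0.86 and PHLDA1 one of 0.72. MYC (0.65), the ephrin receptor EPHA2 (0.60) and the cyclin gene CCND1 (0.28) rose as well, each with a limma adjusted p of 0.00048 or less. CCND1 was not called without the intensity trend (adjusted p = 0.0821). IER3, an early response gene, fell, with a log2 difference of -0.23 (adjusted p = 0.0044 by limma), and was not called without vehicle 1 (adjusted p = 0.0557), without octanoate 2 (0.114), with no filter (0.102) or without the intensity trend (0.161). Of the called phosphatases, DUSP5 and DUSP1 had log2 differences above this median, and the other 9 of the 10 genes lay below it.

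**Figure D4:**
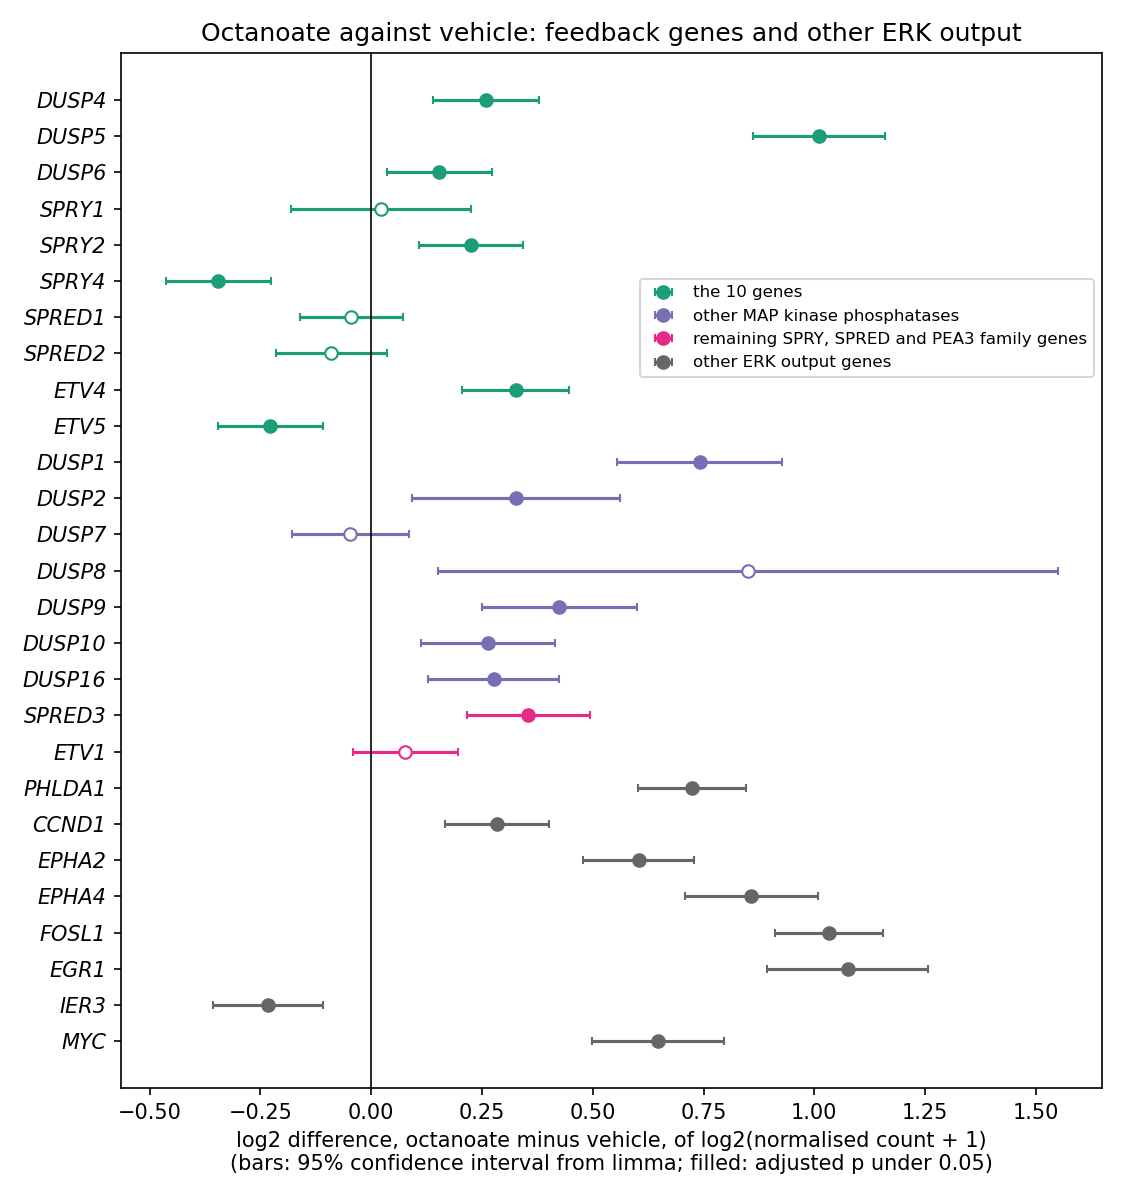
Log2 difference between octanoate and vehicle with its 95% confidence interval from limma (horizontal axis, log2 scale) for the 10 genes, 9 relatives and 8 other ERK output genes; filled points have an adjusted p under 0.05. DUSP5 lies at 1.01, SPRY4 at -0.35 and ETV5 at -0.23, and 7 of the 8 other output genes lie above 0.

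Other brakes on receptor and RAS signalling were also called in both directions. Of 11 such genes, 4 rose, 3 fell and 4 did not pass the test, with a median log2 difference of 0.06, where 29.9% of all genes tested and 38.1% of those averaging at least 1000 were called. ERRFI1, an inhibitor of EGF receptors, had 28712 and 27687 normalised counts in vehicle and 50384 and 51506 in octanoate, which gave a log2 difference of 0.85 (SE 0.06, adjusted p = 3.92e-11 by limma). IL17RD, a membrane inhibitor of fibroblast growth factor signalling that belongs to the same feedback system as the Sproutys, went the other way, from 596.8 and 562.9 to 300.3 and 289.4. Its log2 difference was -0.97 (SE 0.10, adjusted p = 4.39e-08 by limma). RASA1, which inactivates RAS, rose by 0.35 (adjusted p = 5.45e-05 by limma), and was not called without the intensity trend (0.0665). Without vehicle 1 the list held 1 fall in place of 3.

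In the cascade itself the share of calls was near that over all genes tested. Of 18 genes from RAS to ERK with their adaptors and target kinases, 3 rose, 2 fell and 13 did not pass the test, and the median log2 difference was -0.00357. Over all genes tested 29.9% were called, and 38.1% of those averaging at least 1000, a range that holds each cascade gene but KSR1. The count of calls is thus no result about the cascade. KSR1, a scaffold of the cascade, rose by 0.57 (adjusted p = 0.000167 by limma), and MAP2K1, which encodes MEK1, by 0.26 (adjusted p = 0.00133 by limma). NRAS fell, with a log2 difference of -0.24 (adjusted p = 0.0019 by limma). The list held 1 fall in place of 2 without vehicle 1, without octanoate 1 and with TMM factors. With no filter the adjusted p of MAP2K1 was 0.056. Without the intensity trend, 1 cascade gene (KSR1) and 1 of the other brakes (ERRFI1) rose, and 0 and 1 (IL17RD) fell. With the replicate number as a block, 5 cascade genes rose and 4 fell.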

How the data were processed

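RNA was extracted with a Zymo kit and made into libraries with the NEBNext Ultra kit, per the labels' protocols. The submitters' processing notes name bcl2fastq 2.17, Trim Galore, STAR 2.4, Picard, HTSeq 0.9.1 and DESeq2 for hg38. The annotation and the strand setting are not given in the sources used here. The deposited table holds a signal per gene, a count divided by 1 size factor per library, per the file headers and name. Dividing each library by its lowest value above 0 gave whole numbers for 100% of genes (within 0.01), which were taken as reads. In the authors' deposited comparison the columns are a log2 fold change, a test score, p-values and adjusted p-values. The main test was limma 3.58.1 in R 4.3.3 on log2(value + 1), with an intensity trend, over 20250 genes with a mean of at least 10. It was tested on simulated data, where false calls made up a larger share of its calls than the threshold of 0.05 allows. Log2 differences on this scale understate the change of genes with low counts. edgeR 4.0.16 and DESeq2 1.42.0 on recovered reads were alternatives, as were other pseudocounts, filters and scalings, a prior without trend, the replicate number as a block and leaving out each library. Locations, exon lengths and overlaps came from GENCODE 29, and sequences from RefSeq. A search with blastn 2.17.0 (95% identity over at least 100 bases) found sequence shared with other genes for DUSP6 and ETV5 only. The genes and lists were chosen with earlier results of these data known. Named are the 10 genes, all members of the phosphatase, relative and ERK output lists, and the 3 members with the smallest p of the other lists. The p-values are not adjusted over the lists alone.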

Additional observations from a re-analysis of the deposited data

How the results depend on the processing

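The 14 alternatives kept the direction of DUSP4, DUSP5, DUSP6, SPRY2, SPRY4, SPRED1, SPRED2, ETV4 and ETV5. DUSP5 was the only one of the 10 genes called under every alternative, with a highest adjusted p of 0.036. Genes of low count limit what can be called: DUSP8 had at most 32.5 normalised counts. The cause of the shifts given here was not tested.

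Without the intensity trend, 1625 genes were called in place of 6048. Of the 10 genes 1 was then higher and 0 lower, with log2 differences unchanged at 0.26 for DUSP4, 0.15 for DUSP6, 0.23 for SPRY2, -0.35 for SPRY4, 0.33 for ETV4 and -0.23 for ETV5. That fit called 1 other phosphatase higher, 0 of the remaining relatives higher, 1 other brake higher and 1 lower, 1 cascade gene higher and 0 lower, and 0 other ERK output genes lower. With no filter on low counts, 2595 genes were called. Of the 10 genes 3 were then higher and 1 lower, with DUSP6 at 0.15, SPRY2 at 0.23 and ETV5 at -0.23 no longer called. That fit called 1 other phosphatase higher, 1 other brake lower, 1 cascade gene higher and 1 lower, and 0 other ERK output genes lower. With TMM factors 1 cascade gene was lower. On recovered reads edgeR called 6480 genes and DESeq2 4924, and both called 5 of the 10 genes higher and 2 lower.

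Leaving out each library in turn gave between 3 and 5 of the 10 genes higher and between 1 and 2 lower. The log2 difference ranged from 0.11 to 0.20 for DUSP6, from 0.18 to 0.27 for SPRY2 and from -0.26 to -0.19 for ETV5. The number of other phosphatases called higher ranged from 3 to 5, that of other brakes called lower from 1 to 4, that of cascade genes called lower from 1 to 2 and that of other ERK output genes called lower from 0 to 1. The median log2 difference ranged from 0.26 to 0.41 for the other phosphatases, from 0.00462 to 0.0948 for the other brakes and from -0.0347 to 0.0326 for the cascade.

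No label ties a replicate number to a shared culture or day, and 2 pairs are too few to show it. Over all genes tested, the difference between replicates 1 and 2 had a correlation of 0.126 between the groups, and of 0.390 over those averaging at least 1000, the range of 9 of the 10 genes. A replicate block in the fit gave 8376 called genes, with 5 cascade genes higher and 4 lower and 6 other phosphatases higher, DUSP8 among them (adjusted p = 0.0387).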
